A study of Mus musculus with 3 samples.

Results

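miR-210 is the miRNA best known for its induction by low oxygen, and both mature arms of its hairpin, miR-210-3p (mmu-miR-210-3p) and miR-210-5p (mmu-miR-210-5p), were followed here in injured skeletal muscle. The members were chosen by name, and they are 2 of the 1138 mature mouse miRNAs listed in each library. Small RNAs of 18 to 30 nucleotides were sequenced from a muscle of the shin, the tibialis anterior (TA), of C57BL/6 wild-type mice aged 10 weeks. The day 0 library is the uninjured muscle, and the other libraries came from muscles taken 1 and 3 days after they were injected with cardiotoxin (CTX), a toxin from snake venom that kills muscle fibers. The labels describe injection of CTX or of saline as a control and do not say whether the day 0 muscles received saline. RNA of 4 samples was pooled into 1 library at each time point, so the 3 libraries have no replicates, and the spread between mice cannot be estimated.

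In hypoxic cells, hypoxia-inducible factor (HIF) is stabilized and turns on transcription of the miR-210 precursor. miR-210-3p, the arm usually described as the active one, is loaded into Argonaute and represses mRNAs that pair with its seed, among them those of the iron-sulfur cluster scaffold Iscu and the ephrin Efna3, which links it to mitochondrial respiration and to the growth of blood vessels. The cutting of the same hairpin also releases miR-210-5p, the partner strand of the duplex, which is usually the less abundant arm. After a muscle injury that destroys fibers and disrupts small vessels, low oxygen is a known feature of the damaged tissue, and oxygen itself was not measured in these libraries.

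The sequences of both arms are shown because reads are assigned to an arm by sequence alone. They are the RefSeq entries on GRCm38.p6, 5′ to 3′, with the seed (bases 2 to 8) in capitals. Both members matched an entry.
miR-210-3p: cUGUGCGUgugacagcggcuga
miR-210-5p: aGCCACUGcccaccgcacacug
Each arm is 22 nucleotides long. Of the 1679 mature mouse miRNA names in the RefSeq table, no other had the seed of miR-210-3p or that of miR-210-5p, so that neither arm belongs to a larger seed family there. G and C made up 63.6% of miR-210-3p and 68.2% of miR-210-5p, against a median of 52.2% over the table.

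The hairpin is shown to place both arms within the precursor, with the mature arms in capitals.
Mir210: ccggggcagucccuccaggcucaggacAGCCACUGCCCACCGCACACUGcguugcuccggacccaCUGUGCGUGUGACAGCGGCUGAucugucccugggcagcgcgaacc
It is 110 nucleotides long and is encoded on the minus strand at chr7:141221384-141221493. miR-210-3p comes from chr7:141221407-141221428 and miR-210-5p from chr7:141221445-141221466. In the GENCODE M21 annotation of GRCm38, no other gene overlaps the hairpin. The closest genes are Rassf7, whose end is 2726 bases away, and Phrf1, whose start is 7291 bases away. The predicted fold of the hairpin by RNAfold has 16 base pairs between the arms, which are separated by 16 nucleotides. In that fold, 6 of the 7 seed bases of miR-210-3p are paired with miR-210-5p.

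The depth, as the sum of all read counts, was 8507580 reads for day 0, 6421056 for day 1 and 9795076 for day 3. Levels are given as CPM, the reads of a miRNA per 1000000 reads of its library. Each interval given in parentheses is a 95% interval, by Wilson's method for levels and shares and by Wald's for fold changes. These intervals cover the counting error of reads only and not the spread between mice. Since copies made by PCR are not independent molecules, the intervals may be too narrow even for counting error. A level of 3 reads, taken as the detection limit, corresponded to 0.306 to 0.467 CPM. Of 6 myofiber miRNAs examined as a check of the tissue, all reached this limit on days 0 and 3 and 5 on day 1, where miR-208b-3p had 1 read.

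miR-210-3p was a rare miRNA in TA muscle, and its level was higher in both injured libraries than in the uninjured one. Its reads numbered 18 in the day 0 library, 67 in that of day 1 and 79 in that of day 3. Its day 0 level was thus 2.12 CPM (1.34 to 3.34). The levels after injury were 10.4 CPM for day 1 (8.22 to 13.2) and 8.07 CPM for day 3 (6.47 to 10.1). The interval of day 0 overlapped neither of the others, whereas those of days 1 and 3 overlapped each other.

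miR-210-5p was rarer still and was also lowest on day 0. Its reads numbered 6 in the day 0 library, 19 in the day 1 library and 27 in the day 3 library. The level of this arm in uninjured muscle was 0.705 CPM (0.323 to 1.54). After injury it was 2.96 CPM for day 1 (1.89 to 4.62) and 2.76 CPM for day 3 (1.89 to 4.01). The lower bound on day 0 was below the detection limit of that library, 0.353 CPM, and the intervals of days 1 and 3 covered nearly the same range. Summed over both arms, the hairpin gave 24, 86 and 106 reads in the order of the days. These sums were 2.82 CPM (1.90 to 4.20), 13.4 CPM (10.8 to 16.5) and 10.8 CPM (8.95 to 13.1).

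**Figure D1:**
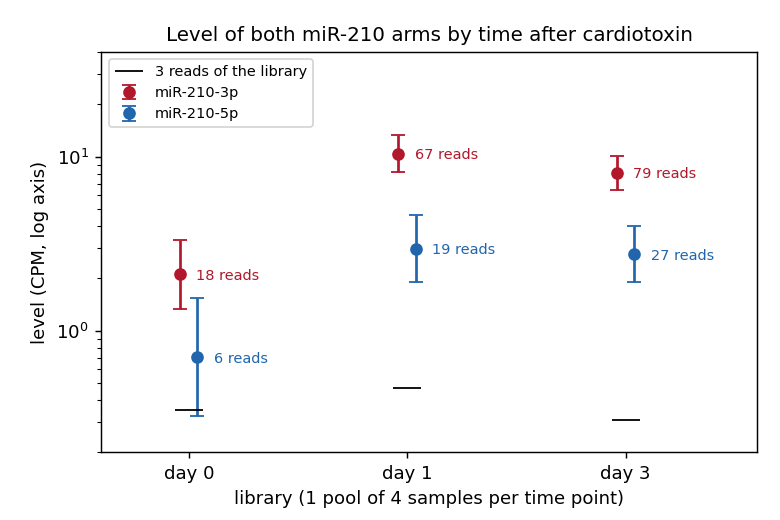
Level of miR-210-3p and miR-210-5p in the library of each time point, in CPM on a log axis, with bars for the 95% Wilson interval, the read count beside each point and a short line at the level of 3 reads. miR-210-3p was at 2.12 CPM on day 0 and at 10.4 and 8.07 CPM on days 1 and 3, and miR-210-5p was lower at each time point.

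By abundance, miR-210-3p stood in the middle of the miRNAs with at least 1 read, which were ranked without the detection limit of 3 reads. On day 0 it ranked 355 of 784 such miRNAs, in a tie of 8 miRNAs with 18 reads. It ranked 304 of 915 on day 1 and 350 of 987 on day 3. The miRNAs next to it in this order could not be told apart from it at this depth. On day 1 these were miR-224-5p with 68 reads, miR-384-3p with 67 and miR-483-5p with 65. miR-210-5p took rank 468 before injury, and ranks 427 and 450 on days 1 and 3. Neither arm was close to the abundant miRNAs, of which 10 held 61.6% to 78.4% of the reads of a library.

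To ask whether miR-210 changed after injury, the reads of each miRNA and the remaining reads of an injured library were set against those of the day 0 library in Fisher's exact test (two-sided). The p-values were adjusted by the method of Benjamini and Hochberg over every miRNA with a read in either library. A miRNA was called at a fold change of at least 2 and an adjusted p of at most 0.001, the thresholds the study used. With 1 library per time point these tests compare the libraries and not the conditions.

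miR-210-3p was upregulated on both days. On day 1 its level was 4.93 times that of day 0 (2.93 to 8.30), a log2 fold change of 2.30 (1.55 to 3.05; adjusted p = 1e-10 by Fisher's exact test). On day 3 it was 3.81 times that of day 0 (2.28 to 6.36), a log2 fold change of 1.93 (1.19 to 2.67; adjusted p = 4.9e-08 by the same test). In bulk muscle, a change in the number of cells that hold a miRNA cannot be told apart from a change in its amount per cell.

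miR-210-5p did not reach the adjusted p threshold on either day, although its fold changes were of similar size. On day 1 its log2 fold change was 2.07 (0.74 to 3.39; adjusted p = 0.0026 by Fisher's exact test). On day 3 it was 1.97 (0.69 to 3.24; adjusted p = 0.0032 by the same test). Both of its intervals were above 0 and contained the values of miR-210-3p for the same day. The sum of both arms had log2 fold changes of 2.25 (day 1, 1.59 to 2.90) and 1.94 (day 3, 1.30 to 2.58).

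Upregulation was common in these comparisons, and 1 of the 2 arms passing on each day is to be read against that. On day 1, 25.1% of the 998 miRNAs tested were called upregulated and 4.31% downregulated. On day 3, 26.1% of the 1056 tested were called upregulated and 4.36% downregulated. The rise of miR-210-3p on day 1 was exceeded by 379 of the 998 miRNAs (38.0%), and that on day 3 by 502 of the 1056 (47.5%). These include each miRNA that had reads only after injury. When miRNAs under 10 reads in either compared library were left out, 77 of 393 (19.6%) had a larger change than miR-210-3p on day 1 and 117 of 407 (28.7%) on day 3.

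**Figure D2:**
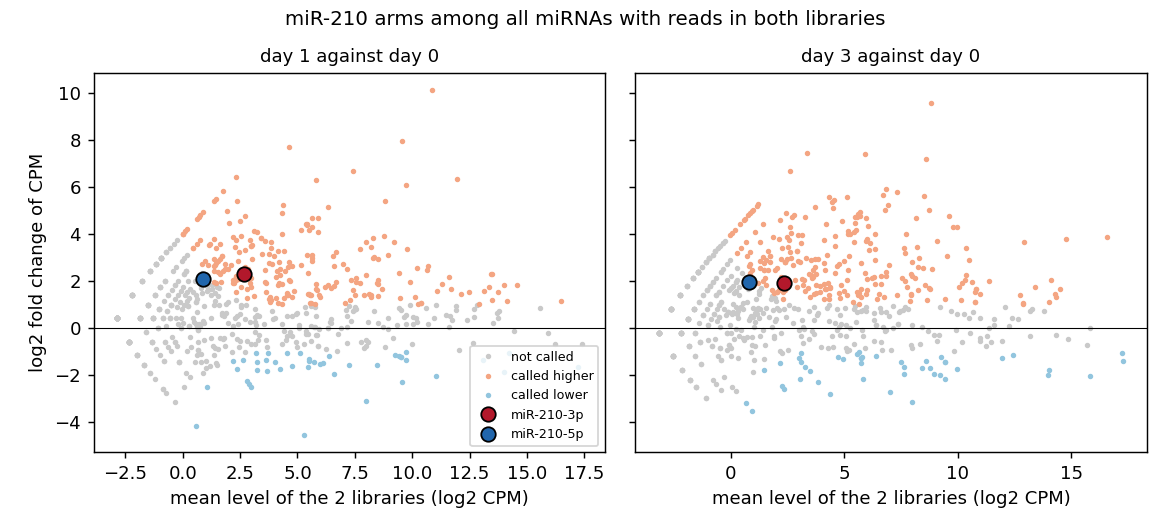
Log2 fold change of CPM against day 0 (vertical axis) by the mean level of the compared libraries in log2 CPM (horizontal axis), with a point for each miRNA that had reads in both libraries, colored by its call. On each day the red point of miR-210-3p is among the called miRNAs whereas the blue point of miR-210-5p is not.

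The size of the rise depended on how the libraries were scaled. Over the same 393 and 407 miRNAs, the median change in log2 CPM was 0.90 (day 1) and 0.93 (day 3). Relative to that median, miR-210-3p was higher by 1.40 on day 1 and by 1.00 on day 3 on the log2 scale. edgeR's TMM factors shifted each log2 fold change by -0.94 on day 1 and -0.93 on day 3, and DESeq2's median-of-ratios factors by -1.04 and -1.12. Totals without the 10 most abundant miRNAs shifted them by -0.62 and -0.51.

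With TMM factors, miR-210-3p stayed upregulated on day 1 with a log2 fold change of 1.36 and was not called on day 3 with 1.00. With median-of-ratios factors it was called on neither day, with 1.26 and 0.81. With totals without the 10 most abundant miRNAs it was called on both days, with 1.69 and 1.42. The values of miR-210-5p were 1.12 and 1.04 with TMM factors and 1.03 and 0.85 with median-of-ratios factors. Every one of these values was above 0. The background moved with them. TMM factors called 12.9% of miRNAs upregulated and 10.7% downregulated on day 1, and 15.6% and 10.3% on day 3. Median-of-ratios factors called 11.8% upregulated and 12.1% downregulated on day 1, and 14% and 11.7% on day 3. Totals without the 10 most abundant miRNAs called 17.3% and 8.32% on day 1, and 20.5% and 7.48% on day 3.

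The call also depended on how much spread between libraries was allowed for, which 1 library per time point cannot show. When a coefficient of variation of 0.2 was assumed in edgeR's exact test, miR-210-3p was called on day 1, as were 16.2% of all miRNAs, but not on day 3, where 19% were. At 0.4 it was called on neither day, and 2.81% and 5.11% of all miRNAs were called upregulated. With a fold change of at least 4, which 16.8% and 18.4% reached with the test, it was called on day 1 alone. miR-210-5p was called under none of these. It passed on both days when an adjusted p of 0.05 was allowed, as did 30.7% and 31.1% of all miRNAs.

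**Figure D3:**
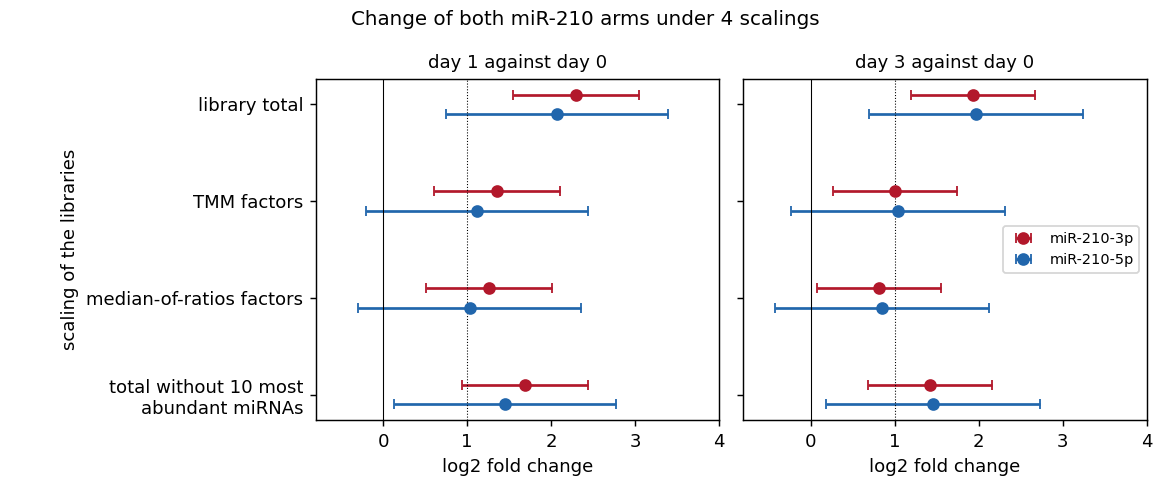
Log2 fold change against day 0 of both miR-210 arms (horizontal axis) under 4 ways of scaling the libraries (vertical axis), with bars for the 95% counting interval and a dotted line at a fold change of 2. The points of miR-210-3p range from 1.26 to 2.30 on day 1 and from 0.81 to 1.93 on day 3.

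Days 1 and 3 were also compared with each other, to ask whether the level changed between them. miR-210-3p was at -0.37 on day 3 relative to day 1 on the log2 scale (-0.84 to 0.10; adjusted p = 0.29 by Fisher's exact test). miR-210-5p was at -0.10 (-0.95 to 0.74; adjusted p = 1 by the same test). Neither arm was called, where 9.6% of 1104 miRNAs were called higher on day 3 and 7.16% lower. At this depth the order of the days was therefore not resolved for either arm.

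The share of the arms does not depend on the scaling. In uninjured muscle, 25.0% of the reads of the hairpin were miR-210-5p (12.0% to 44.9%). The share was 22.1% for day 1 (14.6% to 31.9%) and 25.5% for day 3 (18.1% to 34.5%). For each read of miR-210-5p there were 3.53 reads of miR-210-3p on day 1 and 2.93 on day 3. No pair of days differed detectably in Fisher's exact test (two-sided), with p = 0.79 for day 1 against day 0, p = 1 for day 3 against day 0 and p = 0.61 for day 3 against day 1 (each adjusted p = 1 over the 3 pairs). The intervals were wide. For day 1 against day 0, the log2 change of the ratio of miR-210-5p to miR-210-3p was -0.23 (-1.76 to 1.29), which leaves room for a change by more than the fold threshold in either direction.

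The share of miR-210-5p was also set beside the less abundant arm of other hairpins. Both arms were listed for 358 hairpins, of which 143 had at least 100 reads of both arms in each library. The median share of their less abundant arm was 1.36% before injury, and 1.73% and 2.36% on days 1 and 3. On day 0, 17 of the 143 hairpins (11.9%) had a less abundant arm with a share above that of miR-210-5p. This was 17 on day 1 and 18 on day 3. miR-210 itself did not reach the minimum of 100 reads on days 0 and 1, and only on day 3, with 106 reads, did both arms together exceed it. The hairpins compared were thus more abundant than miR-210 before injury. In a comparison added after the data were seen, 55 other hairpins with a lowest total of at least 20 and under 100 reads over the libraries had a median share of 10.2% on day 0, 11.1% on day 1 and 10.1% on day 3. Of these, 14 on day 0 (25.5%), 20 on day 1 (36.4%) and 10 on day 3 (18.2%) had a larger share than miR-210-5p. The share of miR-210-5p was above their median in each library.

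**Figure D4:**
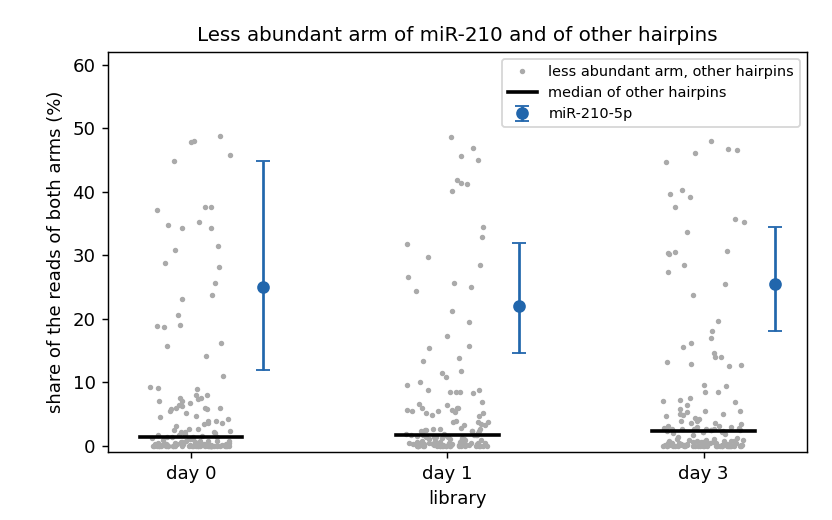
Share of the less abundant arm in the reads of both arms (vertical axis, %) in each library (horizontal axis), for 143 hairpins with at least 100 reads (gray, with the median as a black line) and for miR-210-5p (blue, with the 95% Wilson interval). miR-210-5p lies between 22.1% and 25.5%, and the medians of these more abundant hairpins at 1.36% to 2.36%.

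The miRNAs whose pattern was most like that of miR-210-3p were found by the distance between their log2 changes on days 1 and 3, over the 216 miRNAs with at least 100 reads in each of the 3 libraries. The closest was miR-340-5p (distance 0.17), with log2 changes of 2.48 on day 1 and 1.91 on day 3. Next came miR-181d-5p (0.33), miR-92a-3p (0.42), miR-93-5p (0.44) and miR-374b-5p (0.49). miR-210-5p, which did not have the reads to enter this order, was at a distance of 0.24, and 1 of the 216 miRNAs was closer. The likeness is loosely determined, because 18 of the 216 (8.33%) lay within the counting intervals of miR-210-3p on both days.

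Other miRNAs linked to low oxygen were examined as a pair of lists. Both lists were chosen with earlier results of these data known, so the share of a list that was called describes its members and tests nothing. The first held 11 miRNAs reported to rise in hypoxic cells, which are members of the miR-23, miR-24, miR-26, miR-27, miR-103 and miR-181 families. On each day, 4 of the 11 were upregulated, or 36.4% against the 25.1% and 26.1% of all miRNAs. Downregulated were 0, against 4.31% and 4.36% of all. Each member had at least 7 reads in every library, whereas many other miRNAs had too few reads to be called. The shares are thus not matched for abundance, and the 36.4% cannot be read as an excess. The list had a median change in log2 CPM of 0.77 (day 1) and 0.36 (day 3), below the medians of 1.41 and 1.73 over all miRNAs tested. Those medians include 297 and 341 miRNAs with 0 reads in 1 of the libraries. Over miRNAs with 10 or more reads in each compared library the medians were 0.90 and 0.93. miR-23a-3p changed most, with 2.31 on day 1 and 1.40 on day 3. miR-26a-5p was at -0.23 on day 1, and miR-107-3p, with 11 reads on day 0 and 7 on day 3, was at -0.86 on day 3. On day 1, 1 of the 11 had a larger log2 fold change than miR-210-3p, and on day 3, 0 of them did. With TMM factors, and equally with median-of-ratios factors, 1 of the 11 was upregulated and 1 downregulated on day 1, and 0 and 4 on day 3. Under TMM factors the shares called over all miRNAs were 12.9% up and 10.7% down on day 1, and 15.6% up and 10.3% down on day 3. Under median-of-ratios factors these shares were 11.8% and 12.1%, and 14% and 11.7%. Totals without the 10 most abundant miRNAs called 2 members up and 0 down on day 1, and 0 and 1 on day 3. Over all miRNAs that scaling called 17.3% up and 8.32% down on day 1, and 20.5% and 7.48% on day 3. Such a scaling shifts the list and all other miRNAs by the same amount.

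The second list held 9 miRNAs reported to act on HIF subunits or on their regulators. On each day, 6 of the 9 (66.7%) were upregulated, against the 25.1% and 26.1% of all miRNAs. Downregulated were 0, against 4.31% and 4.36% of all. Each member had at least 17 reads in every library, whereas many other miRNAs had too few reads to be called. The shares are thus not matched for abundance, and the 66.7% cannot be read as an excess. The list had a median change in log2 CPM of 1.90 (day 1) and 1.54 (day 3). These lie above the medians of 0.90 and 0.93 over miRNAs with 10 or more reads in each compared library. Over all miRNAs tested the medians were 1.41 and 1.73, so that the list was lower than this second reference on day 3. miR-18a-5p, of the miR-17 to miR-92a cluster, was highest on day 1 with 4.68, and miR-199a-5p lowest with 0.27. From the same cluster, miR-17-5p and miR-20a-5p were, like miR-18a-5p, called upregulated on both days. The members called are therefore not independent of each other. On day 3 miR-31-5p, reported to target the HIF inhibitor Hif1an, was highest with 7.18, and miR-322-5p lowest with 0.08. miR-20b-5p was close to miR-210-3p in abundance on day 0, with 17 reads, and had 55 and 46 reads on the later days. It was called on day 1 (log2 fold change 2.10) but not on day 3 (1.23). With TMM factors, 3 of the 9 were upregulated on day 1 (12.9% of all miRNAs) and 4 on day 3 (15.6% of all). Downregulated were 0 on either day (10.7% and 10.3% of all). With median-of-ratios factors the counts were 3 and 4 upregulated (11.8% and 14% of all), and 0 and 1 downregulated (12.1% and 11.7% of all). Totals without the 10 most abundant miRNAs called 5 upregulated on each day (17.3% and 20.5% of all) and 0 downregulated (8.32% and 7.48% of all).

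miRNAs known from particular cell types were followed in the same libraries, and they did not all move as miR-210 did. Their levels are not counts of cells. All ratios to day 0 given for them rest on library totals and depend on the scaling as those of miR-210 do. TMM factors would shift each of them by -0.94 on day 1 and -0.93 on day 3 on the log2 scale. For days 0, 1 and 3, the summed level of 6 myofiber miRNAs was 273172, 91450 and 275888 CPM, or 0.335 times and 1.01 times the day 0 level on days 1 and 3. The day 3 sum was carried by miR-206-3p (mmu-miR-206-3p), which is made in regenerating fibers and was 14.5 times its day 0 level. Members of the list below their day 0 level on day 3 were miR-1a-3p (0.377 times), miR-133a-3p (0.284 times), miR-499-5p (0.254 times) and miR-486a-5p (0.364 times). miR-208b-3p went the other way, with 4 reads on day 0 and 10 on day 3, or 2.17 times day 0. The sum of 5 leukocyte miRNAs was 5017, 19274 and 7263 CPM, which is 3.84 times and 1.45 times day 0. On day 0, 94.3% of that sum was miR-150-5p, and the other 4 leukocyte miRNAs together went from 284 CPM to 10967 CPM on day 1 and 4066 CPM on day 3, or 38.6 times and 14.3 times day 0. The leukocyte, stromal and myofiber lists were divided after their values were seen.

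The sum of 3 erythrocyte miRNAs was 7145, 25335 and 12564 CPM (3.55 times and 1.76 times day 0). Endothelial miR-126a (2 arms) was at 59427, 132923 and 58732 CPM (2.24 times and 0.988 times). A pair of stromal miRNAs was at 943, 2397 and 3281 CPM (2.54 times and 3.48 times), mostly from miR-199a-3p, and miR-214-3p alone was at 8.12 times and 7.97 times day 0. The sum of 3 epithelial miRNAs was 2.47, 19.2 and 16.2 CPM (7.76 times and 6.58 times), a level as low as that of miR-210. The ratios of miR-210-3p were 4.93 on day 1 and 3.81 on day 3. Whether a list lay above or below miR-210-3p could depend on whether its member most abundant on day 0 was counted. It did for the leukocyte and stromal lists on both days and for the myofiber list on day 3. Without miR-1a-3p, the myofiber sum on day 3 was 4.74 times day 0. Of the 21 markers, 0 were at 0 reads in any library. Those under the detection limit of 3 reads were miR-141-3p on day 0 (2 reads) and miR-208b-3p on day 1 (1 read). Their part in the change of miR-210 was not tested.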

How the data were processed

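Small RNA libraries of TA muscle on days 0, 1 and 3 after CTX, each a pool of 4 samples, were assigned to time points by their labels. The authors had them sequenced on the BGISEQ platform and aligned the reads to GRCm38.p6. Their processing notes name HISAT and Bowtie2, without versions. The authors deposited for each of 1138 miRNAs a read count without normalization. A further column deposited by the authors, named as expression, was handled as a score, since its whole numbers never exceed the read count. How it was made is not given in the sources used here, and whether it counts molecules is not known. Its totals were 2583553, 3017586 and 3688064 for days 0, 1 and 3. Fold changes of the score scaled to these totals were not computed. For miR-210 the score equalled the reads except for miR-210-5p on day 1 (18 against 19 reads).

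Both arms were taken by name. The members and lists were chosen with earlier results of these data known. CPM used the total of the listed miRNAs. Fisher's exact test was fitted over the whole table. The other miRNAs named were the 5 most like miR-210-3p, its neighbours by reads, and the extremes of each list. miR-20b-5p, miR-17-5p and miR-20a-5p were added after their values were seen. No replicate model can be fitted with 1 library per time point. Alternatives were 3 scalings with an exact binomial test (edgeR's TMM, DESeq2's median of ratios, totals without the 10 most abundant miRNAs), fold changes from the score or with 1 CPM added, a minimum of 10 reads, edgeR's exact test at a preset coefficient of variation (0.2, 0.4), subsampling to 6421056 reads, and thresholds of 4 for the fold change and 0.05 for the adjusted p. The scalings of the lists were added after seeing the data. Tools were Python 3.11.15, scipy 1.17.1, pandas 2.3.3, ViennaRNA 2.7.2, R 4.3.3, edgeR 4.0.16 and DESeq2 1.42.0.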

Additional observations from a re-analysis of the deposited data

How the results depend on the processing

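Of 72 values under the alternatives, 59 kept their direction and their side of the threshold, 7 kept only their direction and fell short of the threshold, 2 newly passed it and 4 changed sign. This tally does not measure robustness, since part of it was fixed in advance. The score, the added 1 CPM and the fold change of 4 kept the p-values of the main test. An arm short of the adjusted p there could not be called under them. At an adjusted p of 0.05, no call could be lost. miR-210-3p on day 1 was no longer called with median-of-ratios factors (log2 fold change 1.26) and when the coefficient of variation was set to 0.4 (2.30). On day 3 it was not called with TMM (1.00) or median-of-ratios factors (0.81), or with either assumed variation between libraries (1.93 in both). It also fell short of a fold change of 4, with a measured fold of 3.81 (log2 fold change 1.93). miR-210-5p passed on day 1 (2.07) and on day 3 (1.97) when the adjusted p threshold was 0.05. The sign changes concerned differences that were called under no setting. Between days 3 and 1, miR-210-3p was at 0.24 and miR-210-5p at 0.58 with the deposited score, which is not scaled for library size, and miR-210-5p was at 0.01 with totals without the 10 most abundant miRNAs. The share of miR-210-5p on day 3 minus that on day 0 was -2.06 percentage points after subsampling, when 5 to 19 reads of this arm were left. Otherwise the cause was not tested.

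No paired analysis was possible because each time point has 1 library. Precision is limited by the 6 to 79 reads of each arm and, above counting error, by the single pool per time point, whose spread is unknown.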
